A study of Rattus norvegicus with 15 samples.

Results

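Collagen genes and the genes of enzymes and chaperones that act on collagen were read across 15 RNA-seq libraries of H9c2 cells. The members were every entry whose symbol names a collagen chain, a prolyl 4-hydroxylase alpha subunit (P4ha1 to P4ha3), a lysyl hydroxylase (Plod1 to Plod3), a lysyl oxidase (Lox, Loxl1 to Loxl4) or a prolyl 3-hydroxylase family protein (P3h1 to P3h4), together with Serpinh1, Pcolce and Bmp1. The table of 19328 entries held 60 of them, 42 collagen chains and 18 enzymes or chaperones. Of these, 35 reached 1 FPKM (a length-scaled and depth-scaled measure of RNA level) in at least 3 libraries and were among the 11288 entries tested, and 25 did not. At that limit, Col18a1 had 1.65 FPKM in the library with its 3rd highest value, and Col20a1, the first member under it, had 0.413 FPKM.

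Collagen chains wind into triple helices in the endoplasmic reticulum. There prolyl hydroxylases stabilise the helix, lysyl hydroxylases mark sites for crosslinks, and the chaperone Serpinh1 (Hsp47) holds the finished helix until export. Outside the cell, proteinases remove the propeptides, fibrils assemble, and lysyl oxidases crosslink them. In heart, fibrillar collagens of types I and III form most of the interstitial matrix, and fibroblasts are their main source.

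H9c2 is a myoblast line from embryonic rat heart. Each of 5 groups had 3 libraries. The DSI+DOX group received 50 µL of danshen injection (a preparation of Salvia miltiorrhiza root) diluted 1 in 20, the AXT+DOX group 5 µM astaxanthin (a carotenoid) and the DMT+DOX group 10 µM diosmetin (a flavone), each 4 h before 2 µM doxorubicin. In the DOX group only 2 µM doxorubicin was given, a topoisomerase II poison of the anthracycline class, and all doxorubicin groups were harvested 24 h after it, while the con group received phosphate-buffered saline. All libraries came from the same cell line, and no group received an addition without doxorubicin. Whether the samples within a group were grown as separate cultures is not stated in the labels, so the p-values refer to a spread that may be technical.

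The labels call the cells cardiomyocytes. Of 9 cardiac markers only Tnnt2, Nkx2-5 and Gata4 reached the level for testing, and Myh6, Myh7, Actc1, Tnni3, Nppa and Ryr2 did not. Of the 7 skeletal muscle markers present, 5 reached it, as did 4 of 8 fibroblast markers (not Pdgfra, Dpt, Tcf21 or Fap) and 4 of 4 smooth muscle markers. No marker of endothelium (3 present) or of leukocytes (4) did, and their summed levels stayed at or below 0.204 and 0.987 FPKM in every library. The third DSI+DOX library stood apart. Its log2(FPKM + 1) values correlated with those of its group at 0.953 and 0.963, against 0.991 or more for every other pair within a group, and its FPKM summed to 548227, against 433383 to 468608 elsewhere.

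That library also stood apart for the collagen genes. Against the mean of its 2 companions on the log2(FPKM + 1) scale, its members ranged from -1.45 (Loxl4) to 0.62 (P3h3) with a median of -0.26, and 17 of 35 deviated by more than 0.3. The same count was 0 in AXT+DOX, 1 in DMT+DOX, 4 in DOX and 0 in con. Loxl4, Col8a1, Col12a1 and Loxl2 were the lowest in it, and P3h3 and Pcolce the highest. Counts of members called are therefore given with and without this library.

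**Figure D1:**
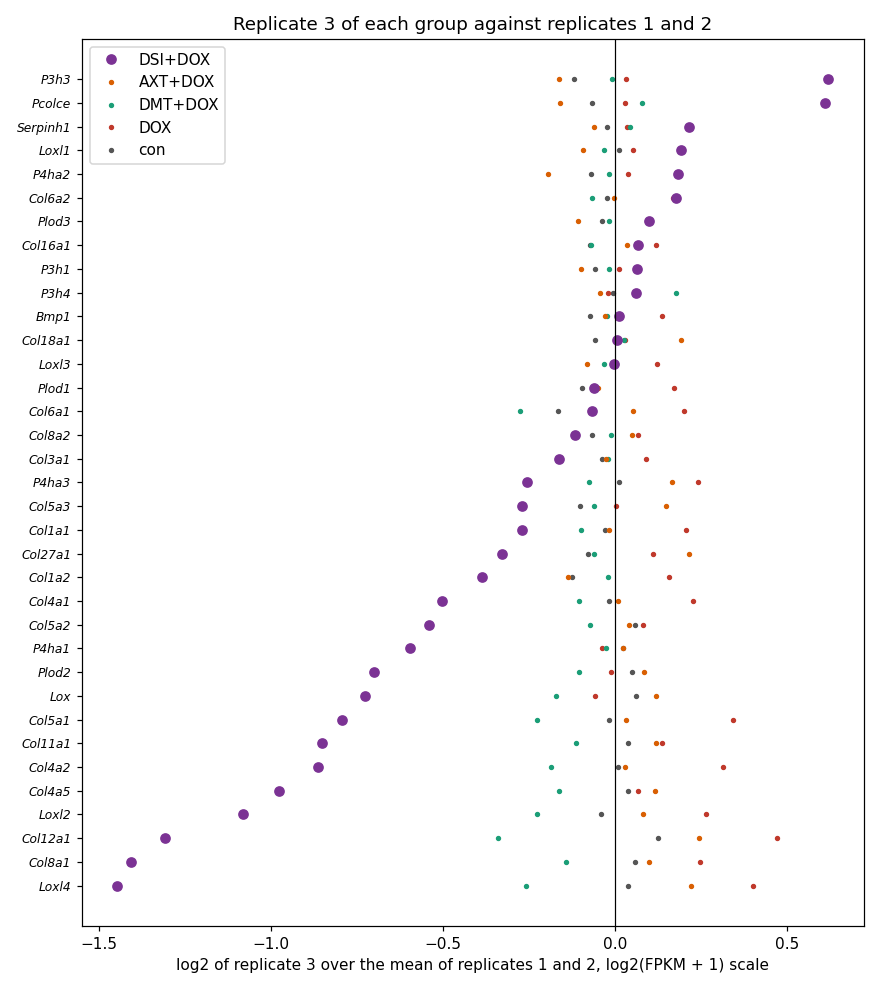
Deviation of the third library of each group from the mean of the first 2 (x axis, log2 of replicate 3 over that mean on the log2(FPKM + 1) scale) for the 35 tested members (y axis). The DSI+DOX points spread from -1.45 to 0.62, while the points of the other 4 groups lie nearer 0.

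The start regions of 3 genes are shown because they stand for the 3 outcomes in DOX against con described below: Col1a2 (lower), P4ha1 (higher) and Col4a1 (not called), which lies head to head with Col4a2. Each covers 250 bases before to 50 after the annotated start, from RefSeq on build GRCr8, a different build from that of the expression table. Capitals mark matches to any of 4 motifs, searched on both strands. These are the TATA box motif TATAAA, the CCAAT box (read as ATTGG when it lies on the opposite strand), the GC box motif GGGCGG (then read as CCGCCC) and the hypoxia response element core ACGTG (then read as CACGT).
Col1a2 (chr4:33518307-33518606, plus strand): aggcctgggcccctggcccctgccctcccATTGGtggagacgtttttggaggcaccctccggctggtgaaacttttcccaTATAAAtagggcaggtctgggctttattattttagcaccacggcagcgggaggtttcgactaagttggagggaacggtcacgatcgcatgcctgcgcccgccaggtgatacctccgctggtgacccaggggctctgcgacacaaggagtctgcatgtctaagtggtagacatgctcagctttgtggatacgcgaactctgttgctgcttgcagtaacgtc
P4ha1 (chr20:27844796-27845095, plus strand): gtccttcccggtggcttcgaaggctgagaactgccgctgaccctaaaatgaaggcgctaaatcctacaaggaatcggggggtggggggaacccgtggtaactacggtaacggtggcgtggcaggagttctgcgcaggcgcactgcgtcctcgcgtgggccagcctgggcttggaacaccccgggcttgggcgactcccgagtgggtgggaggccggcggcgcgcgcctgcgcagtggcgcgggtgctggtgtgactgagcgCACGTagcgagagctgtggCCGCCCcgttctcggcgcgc
Col4a1 (chr16:84885347-84885646, plus strand): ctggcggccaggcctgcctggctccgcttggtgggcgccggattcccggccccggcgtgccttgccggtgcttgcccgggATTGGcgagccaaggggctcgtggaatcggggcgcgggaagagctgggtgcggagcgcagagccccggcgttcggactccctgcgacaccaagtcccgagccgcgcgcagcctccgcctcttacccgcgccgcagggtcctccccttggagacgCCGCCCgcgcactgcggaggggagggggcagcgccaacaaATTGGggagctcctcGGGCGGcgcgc

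Windows of 28 of the 35 members were found in the RefSeq table. TATAAA stood in 1 of these 28 windows, that of Col1a2, against 14.2% of all 33469 windows. CCAAT stood in 7 of the 28 (37.5% of all windows), GGGCGG in 22 (33.1%) and ACGTG in 5 (19.3%), among them P4ha1, P4ha2 and Plod2. In the Col1a2 window TATAAA began at base -170 from the annotated start, and in the P4ha1 window ACGTG was at base 12. The windows of Col4a1 and Col4a2 overlap by 176 bases on opposite strands. A match describes letters and not a bound site.

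The main fibrillar collagens were lower after doxorubicin, while the modifying enzymes moved both ways. Of the 35 members, 22 were called in DOX against con (limma adjusted p under 0.05), 6 higher and 16 lower. Over all 11288 entries tested, 38.9% were called, 24.8% higher and 14.1% lower. With no filter on level, which adds the 25 members under the limit, the split was 14 higher and 15 lower of 60. Over all 19328 entries without the filter, 18.7% were called higher and 8.37% lower. Among the 18 tested collagen chains 1 was higher, 9 were lower and 8 were not called, with a median log2 fold change of -0.46. Among the 17 enzymes and chaperones 5 were higher, 7 lower and 5 not called, with a median of -0.16, and over all entries the median was 0.05. Every fold change is a difference of mean log2(FPKM + 1) with its standard error, a scale that understates the change of genes near 1 FPKM. In bulk RNA, fewer cells of a type and less RNA per cell cannot be told apart.

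**Figure D2:**
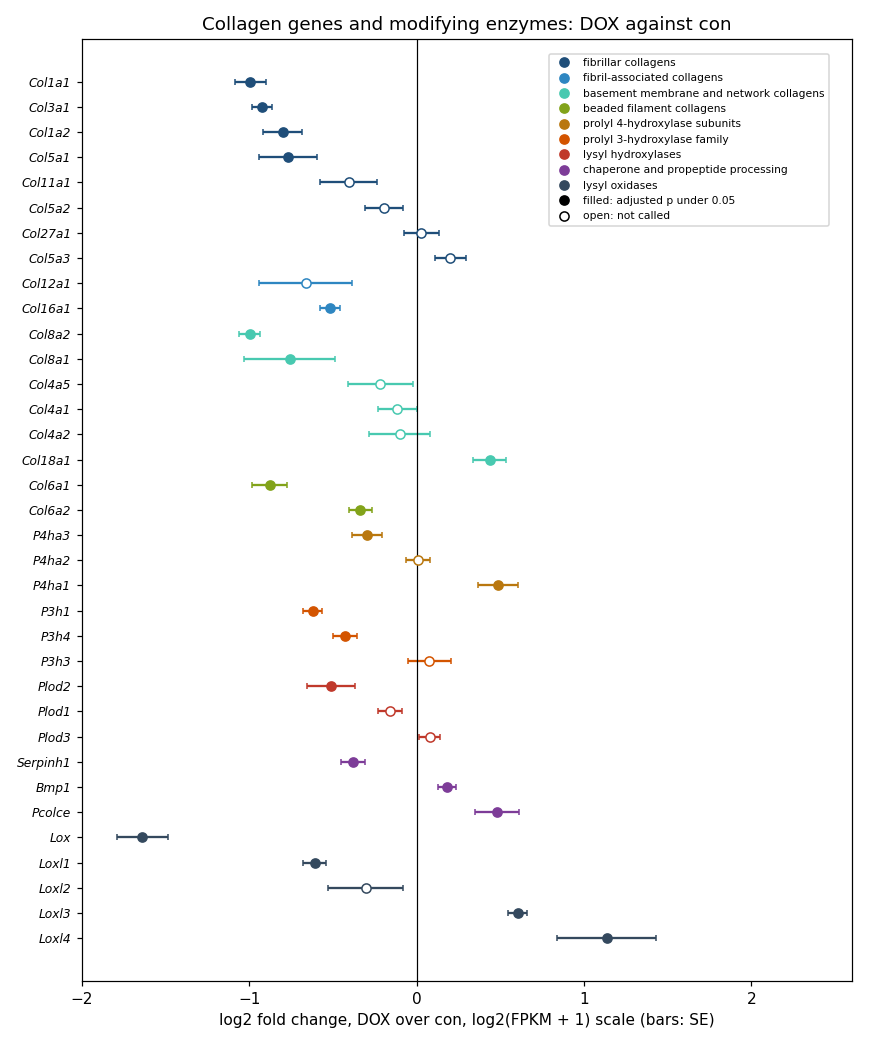
Log2 fold change of DOX over con (x axis, log2(FPKM + 1) scale, bars SE, n = 3 libraries each) for the 35 tested members (y axis), coloured by role, with filled points for limma adjusted p under 0.05. The fibrillar chains Col1a1, Col3a1, Col1a2 and Col5a1 lie left of 0, and the lysyl oxidases run from -1.64 (Lox) to 1.13 (Loxl4).

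Of the 8 tested fibrillar collagens, 4 fell and 4 were not called. Col1a1, the alpha1 chain of type I collagen and the member with the highest mean level, had 1464, 1546 and 1736 FPKM in DOX, against 3206, 3123 and 3101 FPKM in con. The DOX libraries were all far below con and did not overlap it. Its mean fell by 49.7% (log2 fold change -0.99 ± 0.09, limma adjusted p = 1.77e-06). Its partner Col1a2, the alpha2 chain of type I, averaged 726 ± 63.0 FPKM in DOX and 1263 ± 79.0 FPKM in con (SD, n = 3 each; log2 fold change -0.80 ± 0.12, limma adjusted p = 0.000101). Col3a1, which forms the type III homotrimer, had 185, 183 and 196 FPKM in DOX, against 361, 360.0 and 351 FPKM in con. The lowest con library was well above the highest DOX library (-0.92 ± 0.06, limma adjusted p = 4.71e-08).

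The type V chains, which nucleate type I fibrils, differed among themselves. Col5a1 averaged 79.8 ± 12.6 FPKM in DOX and 136 ± 3.85 FPKM in con (log2 fold change -0.77 ± 0.18, limma adjusted p = 0.00336). Col5a2 averaged 238 ± 7.90 FPKM in DOX and 272 ± 6.69 FPKM in con and was not called (-0.19 ± 0.11, limma adjusted p = 0.195). Col5a2 stands next to Col3a1 in the genome. Col5a3 (0.20 ± 0.09), Col11a1 (-0.40 ± 0.17) and Col27a1 (0.03 ± 0.10) were not called either. Leaving out the third DSI+DOX library keeps the DOX and con values as they are and alters only the shared estimate of spread. In that fit 29 of the 35 members were called in DOX against con, 7 higher and 22 lower. Of all entries, 57% were called (33.2% higher and 23.8% lower). Col5a2 and Col11a1 were then among the lower members (limma adjusted p = 0.00164 and 4.65e-05), and Col5a3 among the higher (0.0312).

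**Figure D3:**
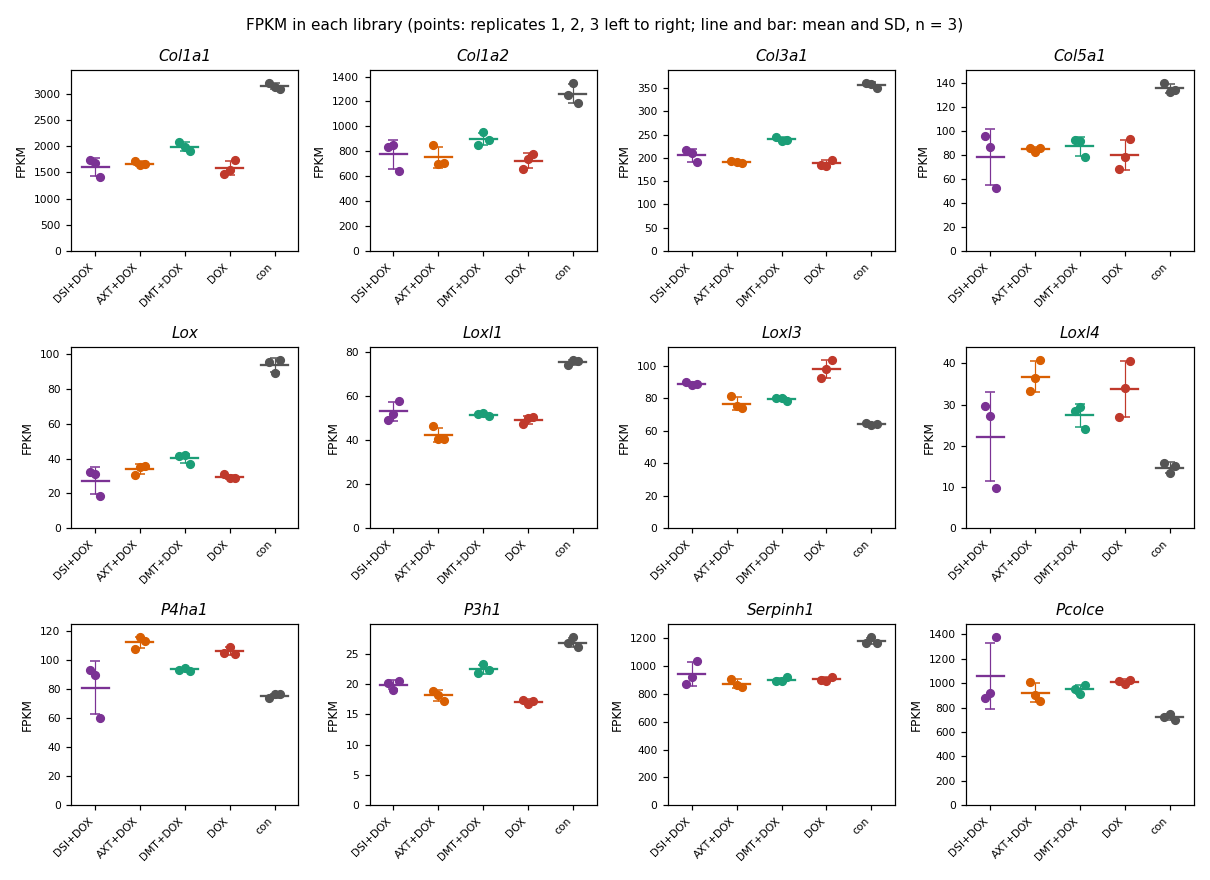
FPKM (y axis) of 12 members in every library, by group (x axis), with the mean and SD of 3 libraries. Col1a1, Col1a2, Col3a1, Col5a1 and Lox are highest in con, Loxl3 and P4ha1 are higher in DOX than in con, and the third DSI+DOX point is lowest for Lox, Loxl4 and P4ha1.

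Other collagen classes were mixed. Col8a2, a short network-forming chain of endothelial and corneal basement membranes, had 9.45, 10.1 and 10.3 FPKM in DOX, against 20.9, 21.4 and 20.1 FPKM in con. All DOX libraries were low and all con libraries high, with no overlap (log2 fold change -0.998 ± 0.06, limma adjusted p = 5.37e-08). Its partner Col8a1 averaged 17.9 ± 2.12 FPKM in DOX and 30.9 ± 0.757 FPKM in con (-0.76 ± 0.27, limma adjusted p = 0.0411). That call was lost when any 1 library outside DSI+DOX was left out (highest limma adjusted p = 0.122) and was 1.58e-06 without the third DSI+DOX library.

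Col6a1, a chain of the beaded filaments that surround cells, had 1.27, 1.33 and 1.63 FPKM in DOX, against 3.67, 3.51 and 3.09 FPKM in con. The groups did not overlap (-0.88 ± 0.11, limma adjusted p = 1.87e-05). Its neighbour in the genome and partner in type VI collagen, Col6a2, also fell, with 38.8 ± 2.73 FPKM in DOX and 49.2 ± 0.530 FPKM in con (-0.34 ± 0.07, limma adjusted p = 0.00141). The ratio of Col6a2 to Col6a1 was 27.7 ± 1.84 in DOX and 14.4 ± 1.20 in con. Col16a1, a fibril-associated collagen, averaged 21.3 ± 1.09 FPKM in DOX and 30.9 ± 0.925 FPKM in con (-0.52 ± 0.06, limma adjusted p = 1.22e-05). Col12a1, which coats type I fibrils, averaged 32.2 ± 7.13 FPKM in DOX and 50.8 ± 3.76 FPKM in con and was not called (-0.66 ± 0.28, limma adjusted p = 0.0780), although it passed without the third DSI+DOX library (0.000866).

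The basement membrane chains Col4a1 and Col4a2, which assemble with each other, were not called. Col4a1 averaged 142 ± 14.5 FPKM in DOX and 153 ± 1.92 FPKM in con (-0.12 ± 0.12, limma adjusted p = 0.472). Col4a2 averaged 101 ± 14.2 FPKM in DOX and 108 ± 2.43 FPKM in con (-0.10 ± 0.18, limma adjusted p = 0.698). The ratio of Col4a1 to Col4a2 was 1.41 ± 0.0534 in DOX and 1.42 ± 0.0234 in con. Col4a5, a chain of kidney and other basement membranes, averaged 27.9 ± 1.00 FPKM in DOX and 32.6 ± 1.72 FPKM in con (-0.22 ± 0.19, limma adjusted p = 0.413), and was called lower without the third DSI+DOX library (0.00878). Of the 18 chains tested, the one that rose was Col18a1, source of the fragment endostatin, with 1.37, 1.82 and 1.65 FPKM in DOX, against 0.876, 1.03 and 0.872 FPKM in con. Each DOX library exceeded each con library, at levels close to the limit for testing (0.44 ± 0.10, limma adjusted p = 0.00308). With 0.876 and 0.872 FPKM under 1 FPKM, the con libraries alone did not meet that limit. Col18a1 therefore entered the test only with libraries that received doxorubicin, among them DOX, where it was higher.

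As a share of all FPKM, the collagen chains together made up 0.646%, 0.721% and 0.794% in the DOX libraries, against 1.31%, 1.28% and 1.29% in the con libraries. Within that sum, Col1a1, Col1a2 and Col3a1 took 76.5% ± 0.102 in DOX and 83.3% ± 0.477 in con (SD, n = 3 each). The ratio of Col1a1 to Col1a2 was 2.18 ± 0.0835 in DOX and 2.50 ± 0.155 in con. These shares are descriptions, and no test was made of them.

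Of the 25 members under 1 FPKM, 24 were collagen chains and the other was P3h2, at 0 in 14 of 15 libraries. None reached more than 0.525 FPKM in any library. The 3 nearest to the limit were Col20a1, Col22a1 and Col17a1. Col20a1 had 0.431, 0.361 and 0.282 FPKM in DOX, against 0.0963, 0.0629 and 0.117 FPKM in con. Col22a1 had 0.321, 0.345 and 0.457 FPKM in DOX and was listed at 0, 0.0106 and 0 FPKM in con. Col17a1, a transmembrane collagen of epithelia, had 0.323, 0.425 and 0.307 FPKM in DOX, against 0.0509, 0.0521 and 0.0594 FPKM in con. All 3 were higher in every DOX library than in any con library, as were 6 other low members, and no low member was lower in every DOX library. Over all 8040 entries under the limit the same was true of 18.3% (higher) and 3.25% (lower).

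With no filter, limma called 29 of 60 members in DOX against con, 14 higher and 15 lower, where 27.0% of all 19328 entries were called (18.7% higher and 8.37% lower). The 8 low members among them were all higher, namely Col6a4, Col7a1, Col17a1, Col20a1, Col22a1, Col24a1, Col26a1 and Col2a1, the chain of cartilage collagen. The read depth behind such levels is unknown.

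Among the hydroxylases, the members moved in different directions. P4ha1, the main catalytic subunit of prolyl 4-hydroxylase, had 105, 109 and 104 FPKM in DOX, against 74.0, 76.4 and 76.4 FPKM in con. The 3 DOX libraries lay close together and above con (0.48 ± 0.12, limma adjusted p = 0.00586). P4ha2 averaged 59.4 ± 1.36 FPKM in DOX and 59.1 ± 2.21 FPKM in con (0.01 ± 0.07, limma adjusted p = 0.935). P4ha3 averaged 36.7 ± 4.08 FPKM in DOX and 45.1 ± 0.565 FPKM in con (-0.30 ± 0.09, limma adjusted p = 0.0197), a call lost without the first DOX library (0.0939) and without 3 other single libraries. The 3 catalytic subunits thus gave a rise, no call and a fall.

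P3h1, which hydroxylates a single proline of the type I alpha1 chain in a complex with Crtap and cyclophilin B, had 17.5, 16.7 and 17.2 FPKM in DOX, against 26.8, 27.7 and 26.1 FPKM in con. The 3 DOX libraries lay close together below con (-0.62 ± 0.06, limma adjusted p = 2.26e-06). P3h4 (also called SC65), which has no hydroxylase activity and supports lysine hydroxylation, averaged 30.4 ± 0.441 FPKM in DOX and 41.3 ± 2.81 FPKM in con (-0.43 ± 0.07, limma adjusted p = 0.000387). P3h3 averaged 44.4 ± 0.706 FPKM in DOX and 42.1 ± 2.07 FPKM in con (0.08 ± 0.13, limma adjusted p = 0.681).

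Of the 3 lysyl hydroxylases, Plod2, which modifies the telopeptides where crosslinks form, was called. It averaged 58.6 ± 1.02 FPKM in DOX and 83.9 ± 2.04 FPKM in con (-0.51 ± 0.14, limma adjusted p = 0.0124). Plod1, which acts on the helix, averaged 37.6 ± 2.88 FPKM in DOX and 42.0 ± 1.71 FPKM in con (-0.16 ± 0.07, limma adjusted p = 0.0987), and was called lower without the third DSI+DOX library (0.0479). Plod3, which also acts in the glycosylation of hydroxylysine, averaged 75.9 ± 3.67 FPKM in DOX and 71.8 ± 1.24 FPKM in con (0.08 ± 0.06, limma adjusted p = 0.352). For Plod1 and Plod3 the DOX and con libraries overlapped.

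The collagen chaperone Serpinh1 fell and the propeptide processing genes rose. Serpinh1 averaged 906 ± 12.7 FPKM in DOX and 1178 ± 23.0 FPKM in con (-0.38 ± 0.07, limma adjusted p = 0.000857). Pcolce, which speeds removal of the C-propeptide, had 1021, 991 and 1025 FPKM in DOX, against 726, 748 and 703 FPKM in con. The DOX libraries were all well above con (0.48 ± 0.13, limma adjusted p = 0.0109), and the call was lost when libraries were scaled to the same median (0.0975). Bmp1, the proteinase that Pcolce assists, averaged 36.6 ± 2.14 FPKM in DOX and 32.2 ± 0.951 FPKM in con (0.18 ± 0.05, limma adjusted p = 0.0187), and that call was lost under median scaling (0.268), quantile normalization (0.194) and without the third con library (0.0802) or the third DOX library (0.0771).

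The lysyl oxidases held both the largest fall and the largest rise among the members. Lox, the founding enzyme of the family, had 31.02, 28.6 and 28.6 FPKM in DOX, against 95.7, 89.3 and 96.5 FPKM in con. The DOX libraries lay close together and far below all con libraries. Its mean fell by 68.6% (-1.64 ± 0.15, limma adjusted p = 1.78e-06). Loxl1, known for elastic fibre crosslinks, averaged 49.1 ± 1.75 FPKM in DOX and 75.4 ± 1.09 FPKM in con (-0.61 ± 0.07, limma adjusted p = 1.12e-05). Loxl2, which crosslinks basement membrane collagen, averaged 26.5 ± 3.85 FPKM in DOX and 32.8 ± 1.84 FPKM in con and was not called (-0.31 ± 0.23, limma adjusted p = 0.318), but was called lower without the third DSI+DOX library (0.0185).

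Loxl3 and Loxl4 went the other way. Loxl3 had 92.4, 97.8 and 103 FPKM in DOX, against 64.5, 63.3 and 64.1 FPKM in con, and the groups were far apart (0.60 ± 0.06, limma adjusted p = 1.71e-06). Loxl4 had 26.99, 34.0 and 40.6 FPKM in DOX, against 15.9, 13.3 and 14.98 FPKM in con. The DOX libraries spread widely but each exceeded con (1.13 ± 0.30, limma adjusted p = 0.00778). Of the summed FPKM of the 5 lysyl oxidases, Lox made up 12.5% ± 1.45 in DOX and 33.4% ± 0.705 in con, and Loxl3 41.4% ± 0.594 in DOX and 22.8% ± 0.306 in con (SD, n = 3 each). Lox was thus the family member with the highest level in con and Loxl3 the one with the highest level in DOX.

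Other genes of the pathway were counted from 4 lists, beside the 24.8% of all entries that were higher in DOX against con and the 14.1% that were lower. Of 13 tested genes for folding and export of procollagen in the endoplasmic reticulum, 9 fell in DOX against con, none rose, and the median was -0.44. They included Fkbp14, a prolyl isomerase of the endoplasmic reticulum (19.0 ± 0.0972 FPKM in DOX and 36.9 ± 1.21 FPKM in con; -0.92 ± 0.09, limma adjusted p = 2.85e-06), and Sec24d, a coat protein of export vesicles (-0.82 ± 0.21, limma adjusted p = 0.00626). Crtap, the partner of P3h1, came next by size (-0.49 ± 0.15, limma adjusted p = 0.0198). Of 8 genes for extracellular processing and fibril partners, 1 rose and 4 fell. The largest was Emilin1, an elastic fibre glycoprotein, with 127 ± 7.95 FPKM in DOX and 331 ± 2.04 FPKM in con (-1.38 ± 0.06, limma adjusted p = 1.20e-09), followed by Tgfbi (-0.90 ± 0.07, limma adjusted p = 2.11e-07) and Adamts2, the N-propeptidase of fibrillar collagens (-0.65 ± 0.08, limma adjusted p = 2.62e-05).

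Of 8 collagen receptor and uptake genes, 2 rose, close to the share of all entries, and 3 fell. The collagen-binding integrin chains differed in direction, with Itga1 lower (1.96 ± 0.526 FPKM in DOX and 6.51 ± 0.652 FPKM in con; -1.35 ± 0.27, limma adjusted p = 0.00115) and Itga11 higher (51.1 ± 7.40 FPKM in DOX and 31.9 ± 1.80 FPKM in con; 0.66 ± 0.13, limma adjusted p = 0.00124). Adgrg1, a receptor for type III collagen, rose (0.59 ± 0.09, limma adjusted p = 0.000229). Of 5 collagen cleavage genes, 2 rose and none fell, and the share called was close to the 38.9% of all entries. The gelatinase Mmp2 averaged 5.30 ± 0.197 FPKM in DOX and 0.440 ± 0.0691 FPKM in con (2.13 ± 0.08, limma adjusted p = 5.32e-10). It was under 1 FPKM in every con library and so entered the test only through groups that received doxorubicin. The inhibitor Timp3 averaged 7.84 ± 0.865 FPKM in DOX and 3.56 ± 0.133 FPKM in con (0.95 ± 0.24, limma adjusted p = 0.00582).

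Some of the cell type markers also moved in DOX against con. The 7 skeletal muscle markers present summed to 31.2 to 32.0 FPKM in DOX and 137 to 147 FPKM in con. Of the 5 tested, Myog (-4.81 ± 0.11, limma adjusted p = 1.14e-11) and Acta1 (-2.79 ± 0.12, limma adjusted p = 1.94e-09) fell, and Myod1, Des and Mymk were not called. The fibroblast markers summed to 370.2 to 391 FPKM in DOX and 616 to 696 FPKM in con. Of the 4 tested, S100a4 fell (174 ± 11.8 FPKM in DOX and 464 ± 33.2 FPKM in con; limma adjusted p = 3.09e-05). Thy1 (165 ± 10.4 FPKM in DOX and 147 ± 8.46 FPKM in con), Postn (9.26 ± 0.831 FPKM in DOX and 7.57 ± 0.751 FPKM in con) and Pdgfrb (34.5 ± 1.81 FPKM in DOX and 35.1 ± 1.19 FPKM in con) were not called. The sum thus differed through S100a4 and not through the list as a whole.

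The smooth muscle markers summed to 2818 to 2986 FPKM in DOX and 4117 to 4396 FPKM in con. Acta2, Cnn1 and Myh11 fell, and Tagln was not called (1013 ± 33.8 FPKM in DOX and 962 ± 31.4 FPKM in con). The cardiac markers summed to 84.6 to 101 FPKM in DOX and 205 to 223 FPKM in con, and most of that sum was Tnnt2 (81.2 ± 7.87 FPKM in DOX and 204 ± 9.40 FPKM in con; limma adjusted p = 5.45e-05). Nkx2-5 rose (6.77 ± 0.574 FPKM in DOX and 5.16 ± 0.643 FPKM in con; limma adjusted p = 0.0496), and Gata4 was not called (4.62 ± 0.184 FPKM in DOX and 3.81 ± 0.0846 FPKM in con). The part of these markers in the fall of the collagen genes was not tested.

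Each addition was then set against doxorubicin alone. These 3 comparisons share the DOX libraries with each other and with DOX against con, so they are not independent. Few members were called in any of them. A member that is not called is not shown to be alike in both groups.

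DMT+DOX against DOX called 5 members, 4 higher and 1 lower, where 10.5% of all entries were called (2.93% higher and 7.53% lower). With libraries scaled to the same median FPKM, 8 members were called, 8 higher and none lower, with no share of all entries given for that fit. With no filter 8 of 60 were called, 3 higher and 5 lower, where 7.45% of all entries were called (1.84% higher and 5.61% lower), and 4 of the lower ones were the low members Col6a4, Col17a1, Col22a1 and Col26a1. The median over the members was 0.06 and over all entries -0.04. P3h1 had 21.8, 23.2 and 22.3 FPKM in DMT+DOX, against 17.5, 16.7 and 17.2 FPKM in DOX (0.37 ± 0.06, limma adjusted p = 0.00122). Every DMT+DOX library was above every DOX library. Col3a1 had 246, 237 and 238 FPKM in DMT+DOX, against 185, 183 and 196 FPKM in DOX (0.35 ± 0.06, limma adjusted p = 0.00168). Col16a1 had 26.2, 27.4 and 25.4 FPKM in DMT+DOX, against 20.5, 20.8 and 22.5 FPKM in DOX (0.30 ± 0.06, limma adjusted p = 0.00598). For these 3 genes the groups did not overlap, and the calls held under every alternative.

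Col1a1 had 2079.9, 1989 and 1899 FPKM in DMT+DOX, against 1464, 1546 and 1736 FPKM in DOX (0.33 ± 0.09, limma adjusted p = 0.0350). All DMT+DOX libraries were higher, but the call was lost in 10 of 15 fits without 1 library (up to 0.141) and under quantile normalization (0.336). Loxl3 was the member that fell, with 80.2, 80.0 and 78.3 FPKM in DMT+DOX, against 92.4, 97.8 and 103 FPKM in DOX (-0.29 ± 0.06, limma adjusted p = 0.00425), and this call was lost under median scaling (0.102). Lox averaged 40.0 ± 2.80 FPKM in DMT+DOX and 29.4 ± 1.38 FPKM in DOX without passing (0.43 ± 0.15, limma adjusted p = 0.0976). Without the third DSI+DOX library 12 members were called, 10 higher and 2 lower, with 25% of all entries called (7.83% higher and 17.2% lower). Lox (limma adjusted p = 0.000355), Plod2 (0.000456), Col11a1 (0.000550) and Col1a2 (0.0137) were among the higher members.

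The same comparison held changes in the pathway lists. Fkbp14 (0.52 ± 0.09, limma adjusted p = 0.00237) and Tmem38b, an endoplasmic reticulum cation channel needed for collagen maturation (0.41 ± 0.09, limma adjusted p = 0.00990), were the 2 of 13 folding and export genes that rose, and none fell. Of the 8 processing and fibril partners, Emilin1 (0.30 ± 0.06, limma adjusted p = 0.00445) and Sparc, a collagen-binding matrix protein (0.23 ± 0.06, limma adjusted p = 0.0305), rose, and the proteoglycan Bgn fell (-0.34 ± 0.09, limma adjusted p = 0.0220). The receptor Adgrg1 fell as well (-0.43 ± 0.09, limma adjusted p = 0.00950). The marker sums in DMT+DOX were 49.8 to 51.5 FPKM for skeletal muscle, 422 to 481 FPKM for fibroblast, 3645 to 3924 FPKM for smooth muscle and 117 to 129 FPKM for cardiac markers, above the DOX ranges given earlier. Of the single markers, Myod1, Myog, Acta1, Acta2 and Cnn1 rose, Postn fell (4.26 ± 0.225 FPKM in DMT+DOX and 9.26 ± 0.831 FPKM in DOX; limma adjusted p = 8.71e-05), and S100a4 was not called (247 ± 26.4 FPKM in DMT+DOX and 174 ± 11.8 FPKM in DOX; limma adjusted p = 0.104). No tested cardiac marker was called, and Thy1 and Pdgfrb were not either. The part of these markers in the changes was not tested.

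DSI+DOX against DOX called 2 members, 1 higher and 1 lower, where 7.88% of all entries were called (1.47% higher and 6.41% lower). The median over all entries was -0.11, and 0.03 with libraries scaled to the same median FPKM, where 3 members were higher and none lower (2 higher and 1 lower under quantile normalization). Col27a1, a fibrillar chain of cartilage, had 2.73, 2.21 and 1.76 FPKM in DSI+DOX, against 3.08, 3.26 and 3.50 FPKM in DOX (-0.42 ± 0.10, limma adjusted p = 0.0292). P3h1 had 20.2, 19.0 and 20.5 FPKM in DSI+DOX, against 17.5, 16.7 and 17.2 FPKM in DOX (0.21 ± 0.06, limma adjusted p = 0.0492). Neither gene overlapped between groups, but both calls were lost when only these groups were fitted (0.383 and 0.450). Col27a1 was lost as well under median scaling and quantile normalization, and P3h1 in 13 of 15 fits without 1 library.

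Without the third DSI+DOX library, 11.8% of all entries were called in DSI+DOX against DOX (2.69% higher and 9.09% lower). That fit called 4 members, 2 higher and 2 lower. They were Col27a1 (-0.31 ± 0.09, limma adjusted p = 0.0452), P4ha1 (-0.21 ± 0.05, limma adjusted p = 0.00916), Col3a1 (0.18 ± 0.05, limma adjusted p = 0.0194) and P3h1 (0.19 ± 0.06, limma adjusted p = 0.0480). The median over the members was 0.03 without that library and -0.12 with it. The pathway lists were read only from the fit that includes that library. Emilin1 rose in DSI+DOX (176 ± 4.84 FPKM in DSI+DOX and 127 ± 7.95 FPKM in DOX; 0.47 ± 0.06, limma adjusted p = 0.000387), while Hspa5, the chaperone BiP (-0.21 ± 0.06, limma adjusted p = 0.0434), and Adgrg1 (-0.34 ± 0.09, limma adjusted p = 0.0447) fell. With no filter 4 of 60 members were called, 1 higher and 3 lower, where 5.40% of all entries were called (0.755% higher and 4.64% lower), with Col17a1 and Col26a1 among the lower ones.

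The marker sums in DSI+DOX were 41.4 to 45.2 FPKM for skeletal muscle, 449 to 676 FPKM for fibroblast, 3904 to 4788 FPKM for smooth muscle and 112 to 207 FPKM for cardiac markers, above the DOX ranges. Of the fibroblast markers S100a4 rose (333 ± 119 FPKM in DSI+DOX and 174 ± 11.8 FPKM in DOX; limma adjusted p = 0.0102) and Postn fell (6.33 ± 0.423 FPKM in DSI+DOX and 9.26 ± 0.831 FPKM in DOX; limma adjusted p = 0.0171), while Thy1 and Pdgfrb were not called. All 4 smooth muscle markers, Myog, Acta1 and Tnnt2 rose. These sums and calls include the third DSI+DOX library and are given only with it. The DSI+DOX spread was wide for Tnnt2 (135 ± 52.3 FPKM) and Tagln (1364 ± 254 FPKM), as for S100a4. The part of these markers in the changes was not tested.

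AXT+DOX against DOX called 1 member, Loxl3, where 0.691% of all entries were called (0.0709% higher and 0.620% lower). It had 81.1, 75.2 and 73.8 FPKM in AXT+DOX, against 92.4, 97.8 and 103 FPKM in DOX (-0.35 ± 0.06, limma adjusted p = 0.0149). The groups did not overlap, and the call was lost under median scaling (0.0840), quantile normalization (0.0552) and in 4 of 15 fits without 1 library (up to 0.0878). At an unadjusted p under 0.05 there were 7 members, a count with no share of all entries to set it against. Without the third DSI+DOX library 6 members were called, 3 higher (Loxl2, Col11a1 and Plod2) and 3 lower (P4ha3, Loxl3 and Loxl1). In that fit 3.3% of all entries were called (0.974% higher and 2.32% lower). Loxl2 then had the largest change, with 39.6 ± 2.64 FPKM in AXT+DOX and 26.5 ± 3.85 FPKM in DOX (0.57 ± 0.10, limma adjusted p = 0.00744). Of the pathway lists, Adgrg1 (-0.51 ± 0.09, limma adjusted p = 0.0257), Tgfbi (-0.33 ± 0.07, limma adjusted p = 0.0418) and Mmp2 fell in AXT+DOX, and Mmp2 averaged 3.62 ± 0.163 FPKM in AXT+DOX and 5.30 ± 0.197 FPKM in DOX (-0.45 ± 0.08, limma adjusted p = 0.0257). With no filter 3 of 60 members were called, 1 higher (Col23a1) and 2 lower (Loxl3 and Col17a1), where 0.838% of all entries were called (0.109% higher and 0.730% lower). The marker sums in AXT+DOX were 67.9 to 71.5 FPKM for cardiac, 25.8 to 30.2 FPKM for skeletal muscle and 329 to 369.7 FPKM for fibroblast markers, below the DOX ranges, while the smooth muscle sums of 2811 to 3152 FPKM overlapped the DOX range. Postn was the only tested marker called, and it fell (3.41 ± 0.611 FPKM in AXT+DOX and 9.26 ± 0.831 FPKM in DOX; limma adjusted p = 0.000449). The part of these markers in the changes was not tested.

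**Figure D4:**
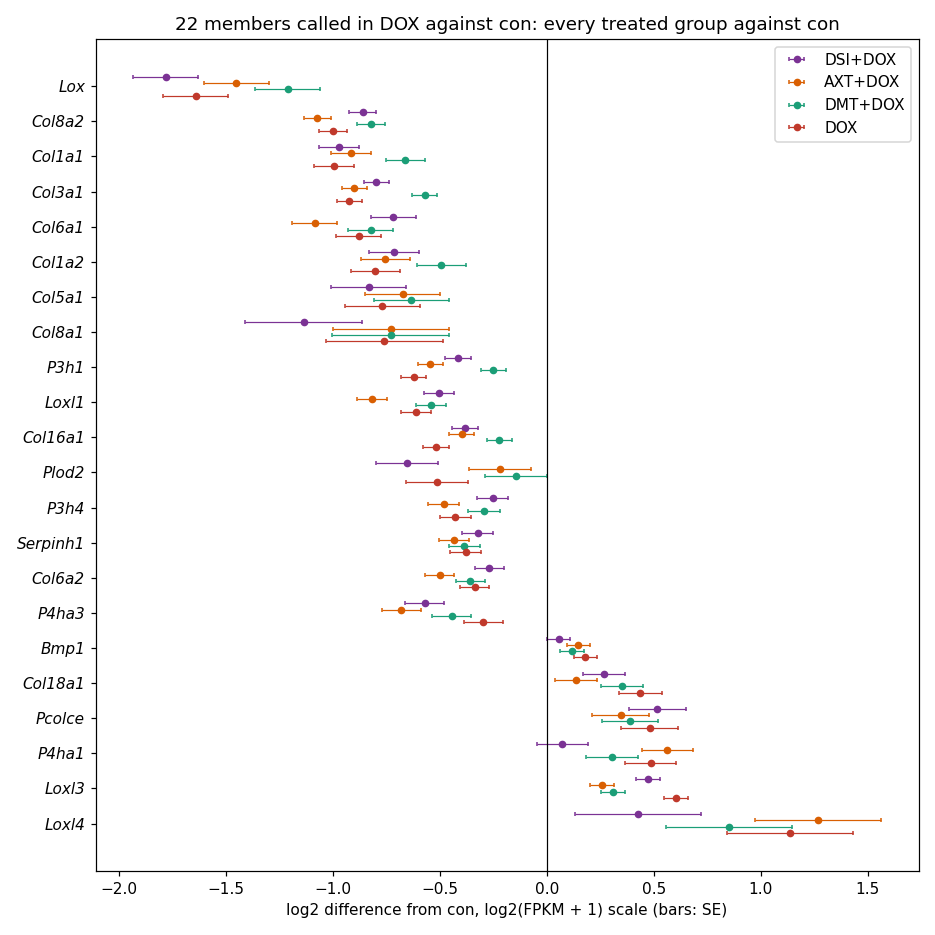
Log2 difference from con (x axis, log2(FPKM + 1) scale, bars SE, n = 3 libraries per group) of the 22 members called in DOX against con (y axis), for each group that received doxorubicin. The 4 groups share the con libraries. Most members lie on the same side of 0 in all groups, and DMT+DOX lies nearest 0 for Lox, Col1a1, Col3a1 and P3h1.

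Set against con, most called members were lower in every group that received doxorubicin. DSI+DOX against con called 26 members, 3 higher and 23 lower, where 41.8% of all entries were called (20.5% higher and 21.3% lower), and 25 without the third DSI+DOX library (40.5%). AXT+DOX against con called 19, 4 higher and 15 lower (35.5% of all entries; 22.7% higher and 12.8% lower), and 26 without the third DSI+DOX library (53.5%). DMT+DOX against con called 18, 4 higher and 14 lower (26.2% of all entries; 15.5% higher and 10.7% lower), and 23 without that library (45.1%). These comparisons share the con libraries.

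As a percentage of the con mean, Col1a1 stood at 51.2% in DSI+DOX, 53.0% in AXT+DOX, 63.3% in DMT+DOX and 50.3% in DOX. Col3a1 stood at 57.5% in DSI+DOX, 53.5% in AXT+DOX, 67.3% in DMT+DOX and 52.6% in DOX. Lox stood at 29.1% in DSI+DOX, 36.0% in AXT+DOX, 42.7% in DMT+DOX and 31.4% in DOX. The DSI+DOX means include the third library, where Lox had 18.7 FPKM, against 32.3 and 31.1 FPKM in its companions. The log2 fold change of Lox in DSI+DOX against DOX was -0.14 with that library and 0.10 without it. It was not called in either fit (limma adjusted p = 0.545 and 0.410). The DMT+DOX mean was the highest of the 4 doxorubicin groups for each of these 3 genes, and in all 4 groups every library of the 3 genes was below every con library. Collagen chains made up 0.796%, 0.750% and 0.506% of all FPKM in DSI+DOX, 0.766%, 0.746% and 0.757% in AXT+DOX and 0.909%, 0.897% and 0.817% in DMT+DOX.

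**Figure D5:**
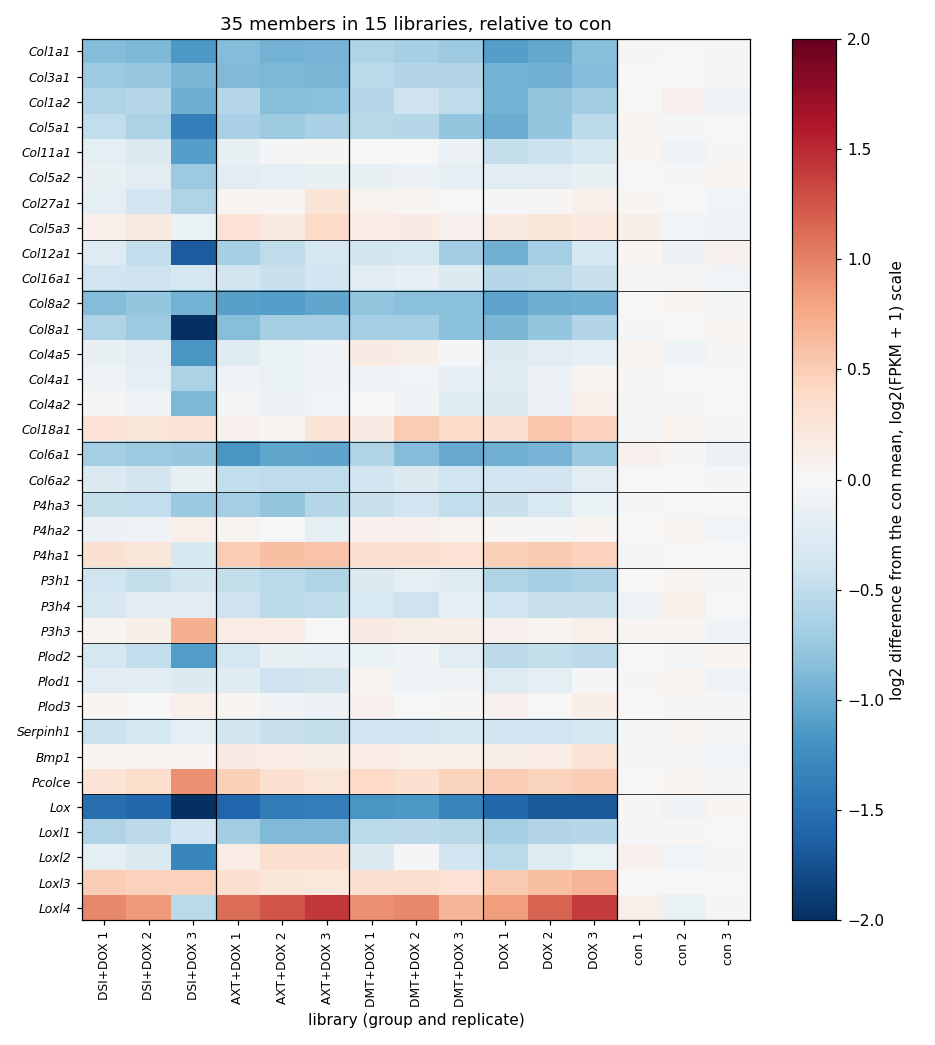
Difference of each library from the con mean (colour, log2(FPKM + 1) scale) for the 35 tested members (vertical axis, by role) in 15 libraries (horizontal axis). The third DSI+DOX column is darker blue than its companions for many collagens, Lox is blue in every doxorubicin library, and Loxl4 is red in all of them but the third DSI+DOX library.

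The additions were also tested against each other. AXT+DOX against DMT+DOX called 5 members, none higher and 5 lower, where 4.70% of all entries were called (2.58% higher and 2.12% lower). They were Col3a1 (191 ± 2.20 FPKM in AXT+DOX and 240.3 ± 4.57 FPKM in DMT+DOX; -0.33 ± 0.06, limma adjusted p = 0.00520), Plod1 (-0.31 ± 0.07, limma adjusted p = 0.0242), P3h1 (-0.29 ± 0.06, limma adjusted p = 0.0109), Loxl1 (-0.28 ± 0.07, limma adjusted p = 0.0356) and Col8a2 (-0.25 ± 0.06, limma adjusted p = 0.0417). For each of them the AXT+DOX libraries lay below the DMT+DOX libraries. The count changed when single libraries were left out. Without the third DSI+DOX library 14 members were called, 3 higher (Loxl2, Loxl4 and P4ha1) and 11 lower. In that fit 15.9% of all entries were called (10.4% higher and 5.48% lower). The count of members was 3 without any 1 con library or the second DOX library. It was 2 without the second AXT+DOX or the first or the third DMT+DOX library, and 1 without the third AXT+DOX or the second DMT+DOX library. In these 9 fits, as with the replicate number as a block (2 called), none was higher. No share of all entries is given for them, so a change in the count may be shared by all entries.

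DSI+DOX against AXT+DOX called 7 members, 4 higher and 3 lower, where 10.5% of all entries were called (2.50% higher and 7.99% lower). After median scaling 8 members were higher and 3 lower, with no share of all entries given for that fit. No member was called when only these 2 groups were fitted or without the third AXT+DOX library, 1 was without the second AXT+DOX library and 4 were without the first con library or with the replicate number as a block. Without the first DSI+DOX library 15 were called, 6 higher and 9 lower, with no share of all entries given for that fit. Without the third 8 were, 5 higher and 3 lower, where 11.7% of all entries were called (3.16% higher and 8.52% lower). The 5 with the largest change were Loxl2 (-0.85 ± 0.23, limma adjusted p = 0.0320), Col27a1 (-0.50 ± 0.10, limma adjusted p = 0.0128), P4ha1 (-0.49 ± 0.12, limma adjusted p = 0.0244), Col6a1 (0.37 ± 0.11, limma adjusted p = 0.0438) and Loxl1 (0.31 ± 0.07, limma adjusted p = 0.0160). DSI+DOX against DMT+DOX called none with limma, where 1.68% of all entries were called (0.345% higher and 1.34% lower). In that comparison 11 members had an unadjusted p under 0.05, again with no share of all entries to set beside them. Without the third DSI+DOX library 2 were called in DSI+DOX against DMT+DOX, where 2.64% of all entries were called (0.718% higher and 1.92% lower). Both were lower in DSI+DOX, Lox (-0.33, limma adjusted p = 0.0333) and Plod2 (-0.27, limma adjusted p = 0.0405).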

How the data were processed

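RNA of 15 H9c2 samples was extracted with TRIzol and sequenced from NEBNext Ultra libraries, per the labels' protocols. The authors deposited FPKM values, with 1 column for each library. The submitters' processing notes name the tools HISAT2, featureCounts and Trimmomatic and, as genome build, Rnor_6.0. Versions, the step to FPKM and scaling between libraries were not given in the sources used here. Whole reads could not be recovered from low values (the commonest ratio held 2.87% of 244 low genes in con), so depth is unknown, and no count model or counting interval was used. Reads shared by overlapping or near-identical genes cannot be told apart.

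After removal of 16 exact duplicates from 19344 entries, the 11288 entries with 1 FPKM or more in at least 3 libraries were fitted as log2(FPKM + 1) with limma 3.58.1 in R 4.3.3 (1 mean per group, all 15 libraries, intensity-trended empirical Bayes, 10 degrees of freedom left, two-sided). Calls were made at a Benjamini-Hochberg adjusted p under 0.05 over all entries tested. The fit was tested on simulated data. Figures used matplotlib 3.10.9 in Python 3.11.15.

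The members, the 4 pathway lists and the marker lists were chosen with earlier results of these data known. The text names called members, up to 12 in each direction, with every library for the first 5, the 8 members with the highest mean level, all tested enzymes of the hydroxylase and lysyl oxidase families, and up to 3 called genes per pathway list in DOX against con. Secondary comparisons name up to 5. Col6a2, Col5a3, Col11a1, Col12a1, the members under the filter, the members called without the third DSI+DOX library, and pathway genes in the addition comparisons were named after their values were seen. Samples were grouped by their titles. Same-numbered replicates deviated together most between DSI+DOX and DMT+DOX (correlations of 0.238, 0.337 and 0.517), a pairing that comes from the data and not from the labels. Between AXT+DOX and DOX the correlations were also all positive but smaller (0.144, 0.0675 and 0.093). In DSI+DOX against DMT+DOX the replicate block called 0 members, as the fit without it did. The alternatives tried were leaving out each library in turn, the replicate number as a block, a fit of only the groups compared, quantile normalization, median scaling, no filter or one at 5 FPKM, and 0.1 as pseudocount.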

Additional observations from a re-analysis of the deposited data

How the results depend on the processing

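In DOX against con and in the comparisons of each addition with DOX, no called fold change of a member reversed under any alternative run. In the other comparisons only counts were kept, and reversals were not looked for. Of the 22 members called in DOX against con, 18 were called under every alternative that tested them (a filter at 5 FPKM leaves out Col6a1 and Col18a1), and Col8a1, P4ha3, Pcolce and Bmp1 were not. In DMT+DOX against DOX 3 of 5 were (not Col1a1 and Loxl3), and in DSI+DOX against DOX and AXT+DOX against DOX none of 2 and none of 1. With each library left out in turn, the members called ranged from 19 to 29 in DOX against con, 0 to 4 in DSI+DOX against DOX, 0 to 6 in AXT+DOX against DOX and 4 to 12 in DMT+DOX against DOX. Against con they ranged from 20 to 28 in DSI+DOX, 18 to 26 in AXT+DOX and 13 to 23 in DMT+DOX. Between additions they ranged from 0 to 15 (DSI+DOX against AXT+DOX), 0 to 7 (DSI+DOX against DMT+DOX) and 1 to 14 (AXT+DOX against DMT+DOX). The highest values of DOX against con, AXT+DOX against DOX, DMT+DOX against DOX and AXT+DOX against DMT+DOX came without the third DSI+DOX library. In that fit the shares of all entries called were, in the same order, 57%, 3.3%, 25% and 15.9%. In the main fit they were 38.9%, 0.691%, 10.5% and 4.70%. A filter at 5 FPKM left 1 call in DSI+DOX against DOX. With no filter 60 members were tested, and there were 29 calls in DOX against con (14 higher, 15 lower), 4 in DSI+DOX (1 higher, 3 lower), 3 in AXT+DOX (1 higher, 2 lower) and 8 in DMT+DOX (3 higher, 5 lower) against DOX, and 27 in AXT+DOX against con (12 higher, 15 lower). Median scaling gave 8 calls in DMT+DOX against DOX and 11 in DSI+DOX against AXT+DOX, and quantile normalization 0 in AXT+DOX against DOX. Pcolce in DSI+DOX against DOX was 0.04 without scaling and was called lower under quantile normalization (-0.29). When a fit held only the 2 groups compared, calls were 0 in DSI+DOX, 2 in AXT+DOX and 11 in DMT+DOX against DOX, 11 in DSI+DOX against con, 0 in DSI+DOX against AXT+DOX and 9 in AXT+DOX against DMT+DOX. With the replicate block they were 21 in DOX against con, 0 in DSI+DOX, 0 in AXT+DOX and 4 in DMT+DOX against DOX, 4 in DSI+DOX against AXT+DOX and 2 in AXT+DOX against DMT+DOX. Outside DSI+DOX with DMT+DOX, same-numbered deviations correlated from -0.536 to 0.249. The labels do not say whether same-numbered samples are paired. In AXT+DOX with DOX, 4 of 6 samples correlated best with their own number, as many as in DSI+DOX with DMT+DOX. The block ended the calls of Col8a1 in DOX against con, Col1a1 in DMT+DOX, Loxl3 in AXT+DOX, and Col27a1 and P3h1 in DSI+DOX against DOX, and changed no other member's call in these 4 comparisons. Where no share of all entries is given for a fit, its count of members was not set against one. A change in such a count may be shared by all entries. The causes of these differences were not tested. Read depth is unknown, so levels near 1 FPKM have no stated precision.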
